A study of Temnothorax americanus and Temnothorax ambiguus and Temnothorax curvispinosus with 48 samples.

Results

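Cytochrome P450s are haem enzymes that insert 1 atom of oxygen into a substrate, and insect genomes carry many copies that are numbered by family and lettered by subfamily. Families 6 and 9 belong to the clan best known for breaking down plant toxins and insecticides, largely in gut, fat body and Malpighian tubules. Family 4 enzymes hydroxylate fatty acids and related lipids, and several are known from fat body and antennae. The 4g subfamily, which makes cuticular hydrocarbons, is left out here.

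The members were 60 contigs, out of 339894 counted in 6 Temnothorax ants, whose first protein match is titled cytochrome P450 but not P450 4g. Protein matches were given for 2140 of the 4088 contigs in the deposited tables of contigs called different between states, so the members were chosen by the same raiding against non-raiding contrast that is described below. Their directions and sizes on the kept libraries are therefore a description without a test. T. pilagens gave 34 members of its 1616 called contigs, T. duloticus 10 of 820, T. americanus 9 of 955, T. ambiguus 6 of 380, T. longispinosus 1 of 209 and T. curvispinosus 0 of 108. These totals are rows of the deposited tables; for T. americanus and T. duloticus they are smaller than the totals stated in the study's text, and the reason is not given in the sources used here. By name, 3 members were 6a20, 7 were 6a14, 11 were other family 6 names, 10 were family 9, 25 were family 4 and 4 belonged to families 304 and 305.

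RNA of 6 whole workers was pooled per library (3 colonies, 2 workers of each), and every species has 4 libraries of either state. Raiding T. americanus, T. duloticus and T. pilagens, which are slavemakers, were taken in raids. Their non-raiding workers were collected in autumn outside the raiding season, so the effects of season and of raiding cannot be told apart. The study chose infertile slavemaker workers for both states. In the hosts T. longispinosus, T. curvispinosus and T. ambiguus, the raiding state is defence of the nest by workers that fought outside it and the non-raiding state is foragers taken earlier, so task cannot be told apart from defence. Whole-body RNA also means that fewer cells of a type and less RNA per cell cannot be told apart. Libraries held 5936238 to 88952971 counts, and levels below are CPM, the standard count rate of a contig within its library, on library sizes scaled by TMM, edgeR's trimmed mean of M-values. The study removed 6 libraries, and the 42 kept ones gave the fold changes; values of the removed libraries stand apart below. In the slavemakers, contigs assembled from single libraries carry name tags, "smadr" in libraries labelled non-raiding and "smifors" in those labelled raiding, on 12 libraries. The tags are not explained in the sources used here. In the hosts the tag is "hfbr" on non-raiding and "hfdr" on raiding libraries, so that "br" and "dr" follow the labels there, whereas the slavemaker tag ending in "dr" sits on libraries labelled non-raiding. The T. duloticus count table heads its raiding libraries with the letters BR. States follow the sample labels throughout, so every direction below rests on them; with the states exchanged, higher and lower, and any ranking of increases and decreases, would change places in the slavemakers.

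Of the 60 members, 58 passed the filter on low counts and were fitted, and 17 of these were higher and 41 lower in raiding. The median log2 fold change, raiding over non-raiding, was -0.93. In T. americanus 3 of 9 members were higher in raiding (33.3%), beside 29.9% of all fitted contigs in the study's called table for that species. In T. duloticus 1 of 10 was higher (10%), beside 25.4%, and in T. pilagens 12 of 34 (35.3%), beside 32.5%. Over all tested contigs, called or not, 50.3%, 50.6% and 51.6% were higher in raiding in those 3 species. The lean to lower values in raiding is therefore also that of the called tables from which the members come, and the further lean of the T. duloticus members was not tested.

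At an adjusted p under 0.05 in edgeR's quasi-likelihood test, 4 of 9 members were called in T. americanus, where 0.805% of all 40389 tested contigs were called (2 higher, background 0.421%, and 2 lower, background 0.384%). In T. duloticus 1 of 10 was called, against 0.363% of 41591 contigs (0 higher, background 0.0793%, and 1 lower, background 0.284%). Of the T. pilagens members 19 of 34 were called, against 2.88% of 38402 contigs (7 higher, background 0.94%, and 12 lower, background 1.94%). Of the 5 fitted T. ambiguus members 0 were called, where the test called 0% of 33331 contigs, although all 5 had an unadjusted p under 0.05, as did 2683 contigs in all. There DESeq2 called 470 contigs, edgeR's likelihood ratio test called 300, and each called all 5 members. Library values of the states did not overlap for 9 of 9 members in T. americanus (13.7% of all tested contigs), 7 of 10 in T. duloticus (8.98%), all 34 T. pilagens members (17.3%) and 4 of the 5 fitted T. ambiguus members (5.36%). Nothing is read from these counts, since the same contrast chose the members.

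**Figure D1:**
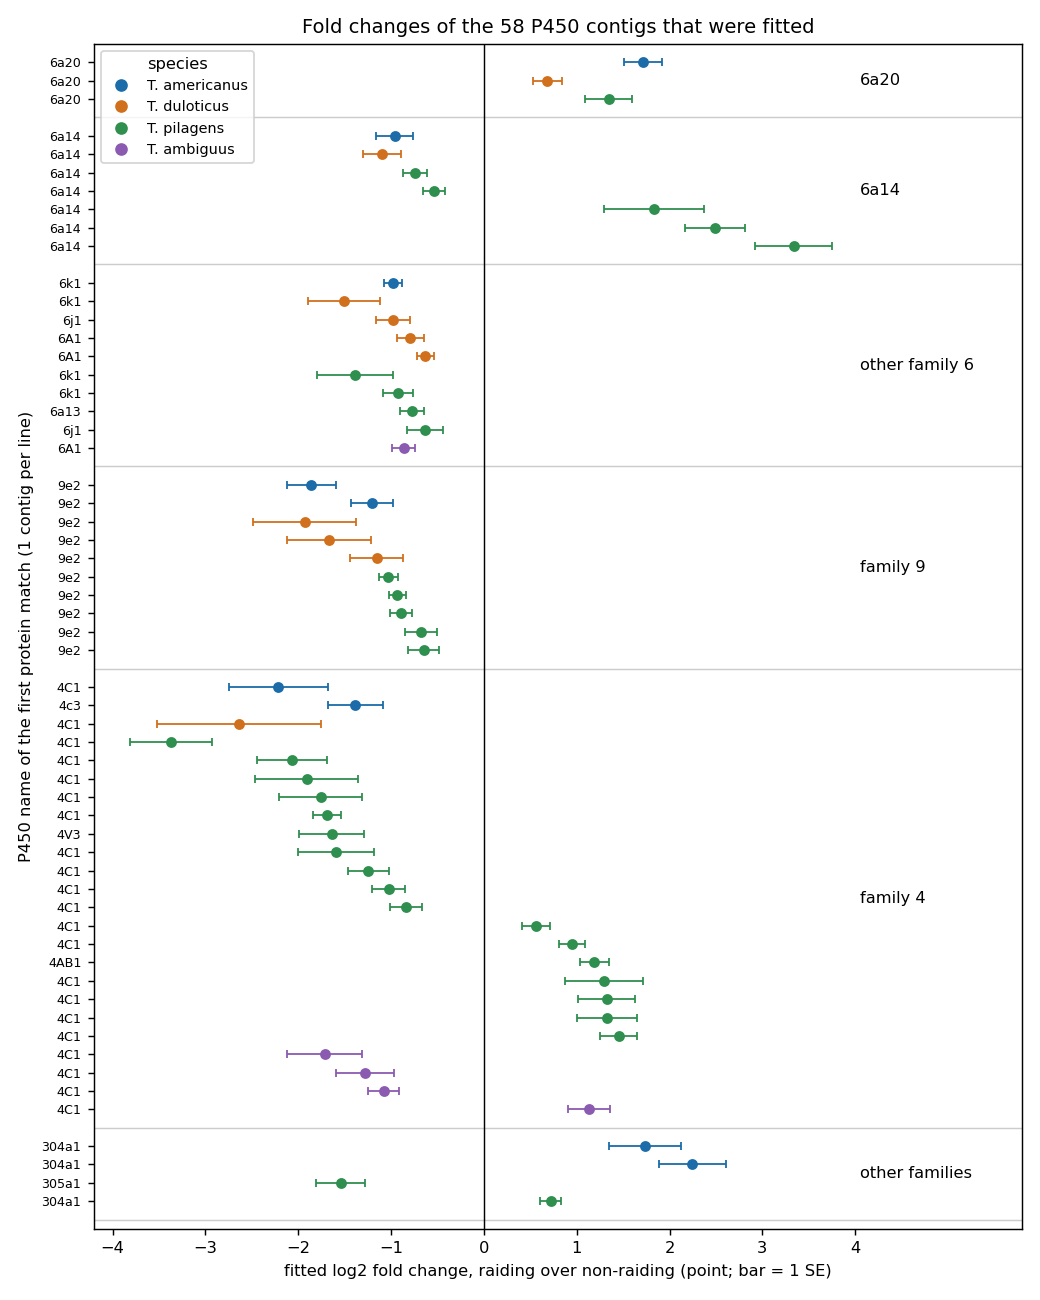
Fitted log2 fold changes, raiding over non-raiding (x axis), of the 58 fitted P450 contigs, 1 contig per line, labelled by the P450 name of its first match and grouped by family; points are coloured by species and bars are 1 SE. All 3 6a20 contigs lie right of 0, all 10 family 9 and all 10 fitted contigs of other family 6 names lie left of 0, and 6a14 and family 4 contigs lie on both sides.

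The 6a20 contigs were higher in raiding workers of all 3 slavemakers, and they were the sole name found once in each of those species. Cyp6a20 is known from Drosophila, where it has been studied in male aggression and social experience. The name here is only the title of the first protein match. No tie of these contigs to aggression was tested, and none is read from their direction. All 3 contigs matched the same protein of the leafcutter ant Acromyrmex echinatior over 509 codons, with 356 or 357 matching residues (69.9% to 70.1% of the codons). In T. americanus, contig c8151 had 86.3, 100.3 and 147 CPM in the kept raiding libraries, against 26.9, 39.2, 35.8 and 33.8 CPM in the non-raiding ones. All raiding libraries lay above all non-raiding libraries, with a log2 fold change of 1.71 ± 0.20 (SE). Contig c5170 of T. pilagens had 60.9, 76.2 and 50.1 CPM in raiding workers, against 21.3, 22.7, 17.9 and 37.6 CPM in non-raiding workers (log2 fold change 1.34 ± 0.26 SE). Non-raiding library BR_683 was the highest of its state for this contig and still lay under all raiding libraries. The smallest difference was that of T. duloticus, where contig c43546 had 118, 102, 149 and 88.0 CPM in raiding libraries, against 66.5, 67.0, 70.6 and 80.9 CPM in non-raiding ones (log2 fold change 0.68 ± 0.16 SE). There the states lay close together, with 88.0 CPM in the lowest raiding library and 80.9 CPM in the highest non-raiding library. No 6a20 contig stood in the called tables of the hosts, whose uncalled contigs carry no protein names, so 6a20 in hosts was not analysed here.

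The 6a14 contigs, also named after a Drosophila gene of the 6a subfamily, fell into a set that was lower and a set that was higher in raiding. The lower set held 1 long match in each slavemaker and a further one in T. pilagens. Contig 11171 assembled from library DR_440 of T. americanus had 19.2, 14.7 and 11.7 CPM in raiding workers, against 34.0, 30.9, 24.6 and 29.2 CPM in non-raiding workers (log2 fold change -0.96 ± 0.20 SE). In T. duloticus, contig c9237 had 30.5, 41.4, 42.4 and 64.5 CPM in raiding libraries, against 84.7, 88.2, 104 and 107 CPM in non-raiding ones (log2 fold change -1.10 ± 0.21 SE). In both species every raiding library lay below every non-raiding library. T. pilagens contig c8138 had 105, 111 and 87.7 CPM in raiding workers, against 151, 189, 195 and 151 CPM in non-raiding workers (log2 fold change -0.75 ± 0.13 SE). Contig c23442 of the same species had 68.4, 56.4 and 49.0 CPM, against 87.7, 81.8, 78.4 and 91.6 CPM (log2 fold change -0.54 ± 0.12 SE).

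The higher set was 3 T. pilagens contigs, and by the labels it held the steepest increase of all members. Contig c12219 had 44.8, 25.2 and 26.7 CPM in raiding workers, against 3.13, 3.95, 1.17 and 4.63 CPM in non-raiding workers, a 10.1-fold difference (log2 fold change 3.34 ± 0.41 SE). Contig c14552 had 12.9, 8.16 and 10.5 CPM in raiding workers, against 2.75, 1.62, 1.11 and 2.06 CPM in non-raiding workers, which is 5.61-fold (log2 fold change 2.49 ± 0.32 SE). Contig c33493 had 20.6, 10.4 and 9.45 CPM in raiding workers, against 3.96, 2.81, 1.23 and 7.34 CPM in non-raiding workers, which is 3.56-fold (log2 fold change 1.83 ± 0.54 SE). Library BR_682 was the lowest non-raiding library for all 3 contigs, and DR_684 the highest kept raiding library for all 3.

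The match lengths, which the choice of members did not use, differed between the sets. The 4 lower contigs matched over up to 502 codons, each over more codons than any of the higher ones, with 75.4% to 81.1% of the residues matching. The 3 higher contigs matched over 196, 327 and 253 codons with 63.8%, 65.4% and 66.0%. The 3 higher contigs and the lower contigs c8138 and c9237 had the same leafcutter ant protein as first match, and c23442 and the T. americanus contig shared another. Whether the 3 higher contigs are pieces of 1 transcript was not tested, since contig sequences were not used here. Summed over its 5 6a14 contigs, T. pilagens had 252, 212 and 183 CPM in raiding workers, against 249, 279.6, 277 and 257 CPM in non-raiding workers, so the sums overlapped although each contig by itself did not.

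**Figure D2:**
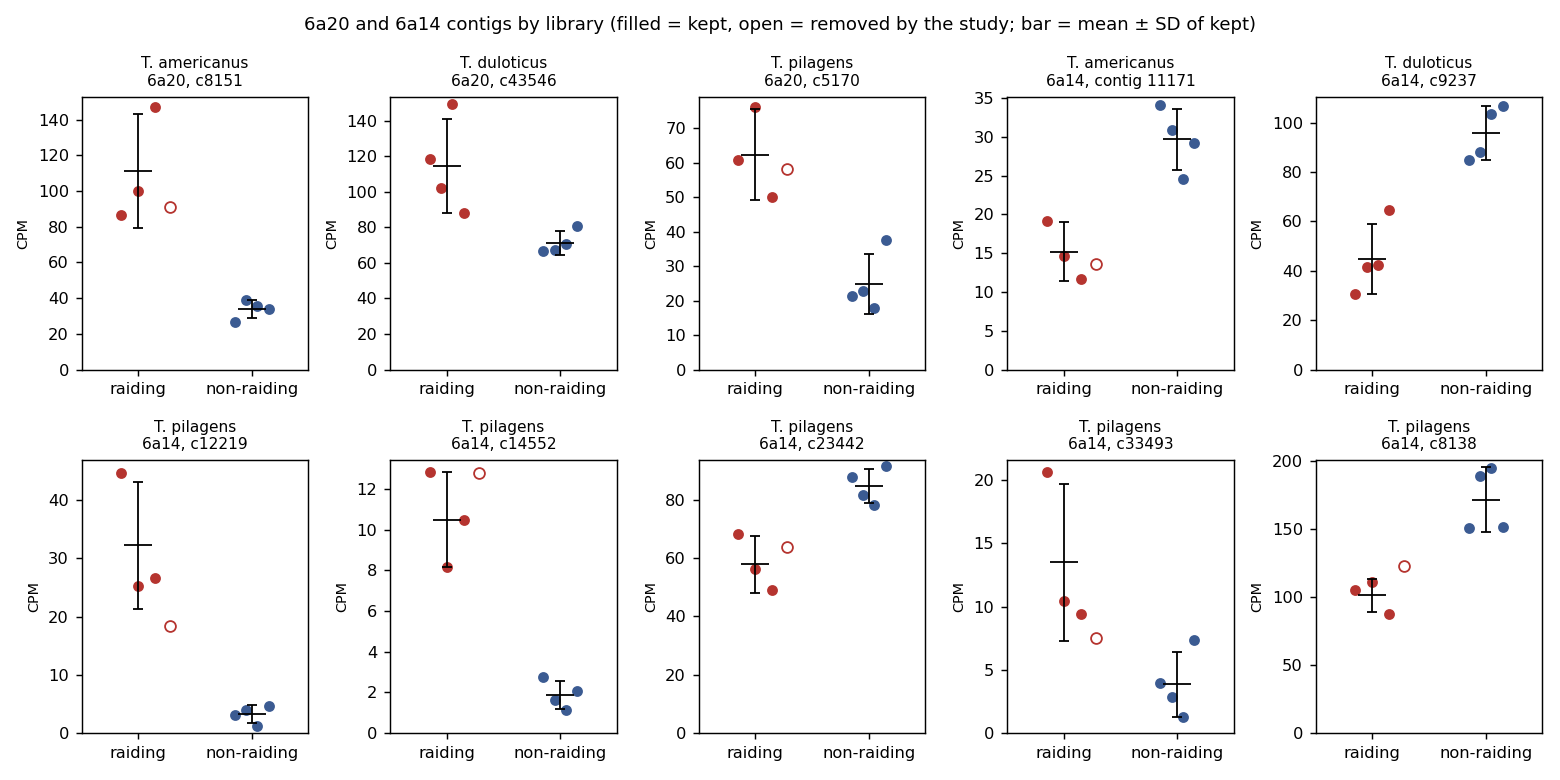
CPM (y axis, from 0) of the 3 6a20 and 7 6a14 contigs in each library, raiding left and non-raiding right; filled points are libraries the study kept, open points the raiding library it removed, and black bars the mean ± SD of the kept libraries. The 6a20 contigs are higher in raiding workers, 4 6a14 contigs are lower, and T. pilagens c12219, c14552 and c33493 are higher.

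The other family 6 names (6k1, 6j1, 6A1, 6a13 and 6B2) pointed the same way wherever they were fitted: all 10 fitted contigs were lower in raiding, with log2 fold changes of -1.51 to -0.63. Names 6k1 and 6j1 come from the German cockroach, 6A1 from the house fly, in which it is tied to insecticide resistance, and 6a13 from Drosophila. The 6k1 contig of T. americanus, contig 6054 assembled from library BR_435, had 32.0, 32.9 and 33.1 CPM in raiding workers, against 70.9, 60.4, 59.2 and 67.4 CPM in non-raiding workers (log2 fold change -0.98 ± 0.10 SE). Its raiding libraries were alike, at 32.7 ± 0.602 CPM, against 64.5 ± 5.61 CPM in non-raiding workers (SD, n = 3 and 4). The 6k1 contig of T. duloticus, c1488, had 18.8, 21.5, 30.02 and 13.6 CPM in raiding libraries, against 51.5, 25.1, 68.5 and 94.2 CPM in non-raiding ones (log2 fold change -1.51 ± 0.39 SE). Its states overlapped, because non-raiding library BR_418 lay below raiding library DR_423. T. pilagens 6k1 contig c8890 had 2.39, 9.73 and 6.66 CPM in raiding workers, against 15.8, 14.3, 20.4 and 15.4 CPM in non-raiding workers (log2 fold change -1.39 ± 0.41 SE).

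Summed over 4 contigs of these names, T. duloticus had 282, 259, 237 and 272 CPM in raiding workers, against 565, 358, 547 and 523 CPM in non-raiding workers. T. pilagens, also with 4 contigs, had 156, 178 and 177 CPM in raiding workers, against 258, 315, 289 and 325 CPM in non-raiding workers. In both species the sums of the states did not overlap. The 6j1 contig of T. duloticus had 133 ± 21.3 CPM in raiding and 264 ± 62.0 CPM in non-raiding workers (SD, n = 4 each). In T. pilagens, 6a13 had 73.4 ± 8.32 CPM in raiding and 127 ± 17.6 CPM in non-raiding workers (SD, n = 3 and 4).

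Family 9 was represented by 1 name, 9e2, first given to a German cockroach enzyme, and by 10 contigs in the 3 slavemakers. All 10 were lower in raiding, with log2 fold changes of -1.93 to -0.65 and a median of -1.09. Contig c4712 of T. pilagens had 379, 459 and 353 CPM in raiding workers, against 826, 840.2, 787 and 823 CPM in non-raiding workers (log2 fold change -1.03 ± 0.10 SE). Its non-raiding libraries spread little, at 819 ± 22.4 CPM (SD, n = 4). In T. americanus, contig 15500 assembled from library DR_437 had 6.15, 5.73 and 3.13 CPM in raiding workers, against 21.2, 15.5, 19.8 and 16.4 CPM in non-raiding workers, which is 3.62-fold lower in raiding (log2 fold change -1.86 ± 0.27 SE). The T. duloticus contig 602 assembled from library BR_417 had 9.996, 21.9, 16.9 and 18.0 CPM in raiding libraries, against 139, 20.4, 62.0 and 34.2 CPM in non-raiding ones (log2 fold change -1.93 ± 0.55 SE). Its non-raiding libraries spread widely, and BR_418 lay below raiding library DR_422. Without BR_417, its highest library and the one it was assembled from, its log2 fold change was -1.22, which also bears on the lower end of the family 9 range.

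The sums over family 9 contigs separated the states in each slavemaker. In T. americanus the 2 contigs summed to 17.2 ± 4.82 CPM in raiding and 46.4 ± 7.66 CPM in non-raiding workers (SD, n = 3 and 4). In T. duloticus the 3 contigs summed to 71.6, 69.1, 43.2 and 59.4 CPM in raiding libraries, against 267, 85.7, 184 and 142 CPM in non-raiding ones. In T. pilagens the 5 contigs summed to 543 ± 61.0 CPM in raiding and 1062 ± 23.0 CPM in non-raiding workers (SD, n = 3 and 4). Library BR_418 had the lowest non-raiding sum of T. duloticus for both family 9 and the other family 6 names.

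**Figure D3:**
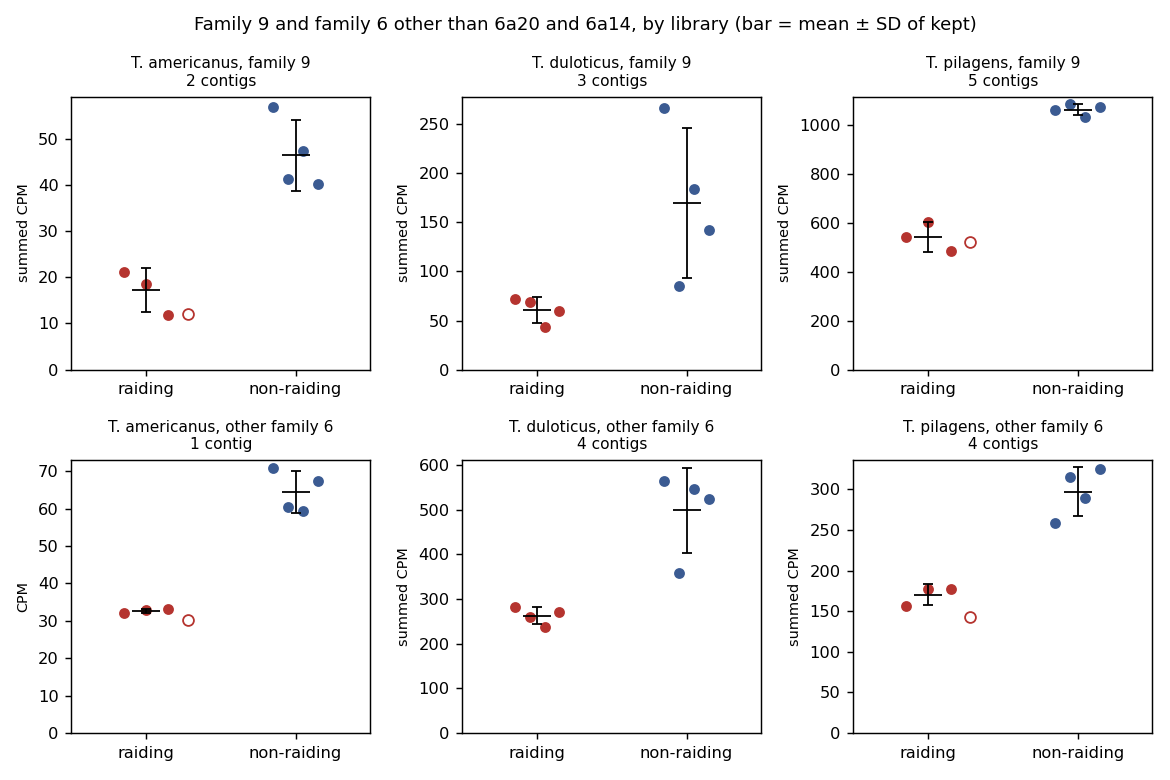
Summed CPM (y axis, from 0) of family 9 contigs (top) and of family 6 contigs other than 6a20 and 6a14 (bottom) in the 3 slavemakers, raiding left and non-raiding right; filled points are kept libraries, open points the removed raiding library, and black bars the mean ± SD of the kept libraries. T. americanus has 1 contig in the bottom row, so its CPM is not a sum, and in all 6 panels the raiding libraries lie below the non-raiding ones.

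Family 4 was the largest group and lay on both sides, with 8 of 24 fitted contigs higher and 16 lower in raiding. Most were named 4C1, after a cockroach fat body enzyme that a hormone of sugar mobilisation induces, with 21 contigs in 4 species, of which 7 were higher and 14 lower. In T. americanus both contigs were lower. The 4C1 contig c16751 had 10.5, 6.99 and 5.29 CPM in raiding workers, against 71.4, 17.3, 21.1 and 32.3 CPM in non-raiding workers (log2 fold change -2.21 ± 0.53 SE). Library BR_433 stood high among the non-raiding libraries, and it was the highest of them for the 4c3 contig as well. Without BR_433 the log2 fold change of c16751 was -1.62. T. duloticus had 1 contig, a 31-residue match with a mean under 5 CPM in each state.

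T. pilagens held 17 family 4 contigs, 7 higher and 10 lower in raiding. The kept libraries of the states were apart for all 17, beside 17.3% of all tested contigs. Nothing is read from this count, since the same contrast chose the members. With removed library DR_687 counted in, 5 contigs stayed apart with raiding above and 9 with raiding below. Summed over the 17, raiding workers had 936, 994 and 764 CPM, against 1031, 1049, 865 and 1147 CPM in non-raiding workers, so the sums overlapped. The split ran within contigs that matched the same protein. A leafcutter ant 4C1 protein was the first match of 5 T. pilagens contigs and 2 T. ambiguus contigs, which makes it the record with the most members. Of the 5, c16141 had 237, 166 and 131 CPM in raiding workers, against 64.1, 61.1, 57.4 and 80.1 CPM in non-raiding workers (log2 fold change 1.45 ± 0.20 SE). It matched over 511 codons, the longest match of the 7. Contig c8776 had 46.1, 62.4 and 42.5 CPM in raiding workers, against 26.0, 25.9, 24.3 and 29.3 CPM in non-raiding workers (log2 fold change 0.95 ± 0.14 SE). Contig c15253, a match over 77 codons, had 17.7, 15.1 and 17.1 CPM, against 7.22, 6.22, 2.40 and 11.5 CPM (log2 fold change 1.29 ± 0.42 SE).

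The remaining contigs of that protein were lower in raiding. Contig c17638 had 1.98, 5.39 and 3.67 CPM in raiding workers, against 19.2, 17.6, 15.96 and 9.53 CPM in non-raiding workers (log2 fold change -2.07 ± 0.38 SE). Contig c15404 had 7.21, 10.4 and 8.49 CPM in raiding workers, against 27.0, 32.5, 28.2 and 25.7 CPM in non-raiding workers (log2 fold change -1.69 ± 0.15 SE). These are contigs of 289 and 231 matched codons, so the directions did not follow the match length. In the host T. ambiguus, contig c17647 had 26.6, 37.8, 25.3 and 26.7 CPM in defending workers, against 59.8, 64.8, 49.5 and 71.8 CPM in foragers (log2 fold change -1.08 ± 0.17 SE). Contig c24531 had 91.9, 60.8, 61.0 and 53.4 CPM in defenders, against 272, 122, 102 and 153 CPM in foragers (log2 fold change -1.28 ± 0.31 SE).

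**Figure D4:**
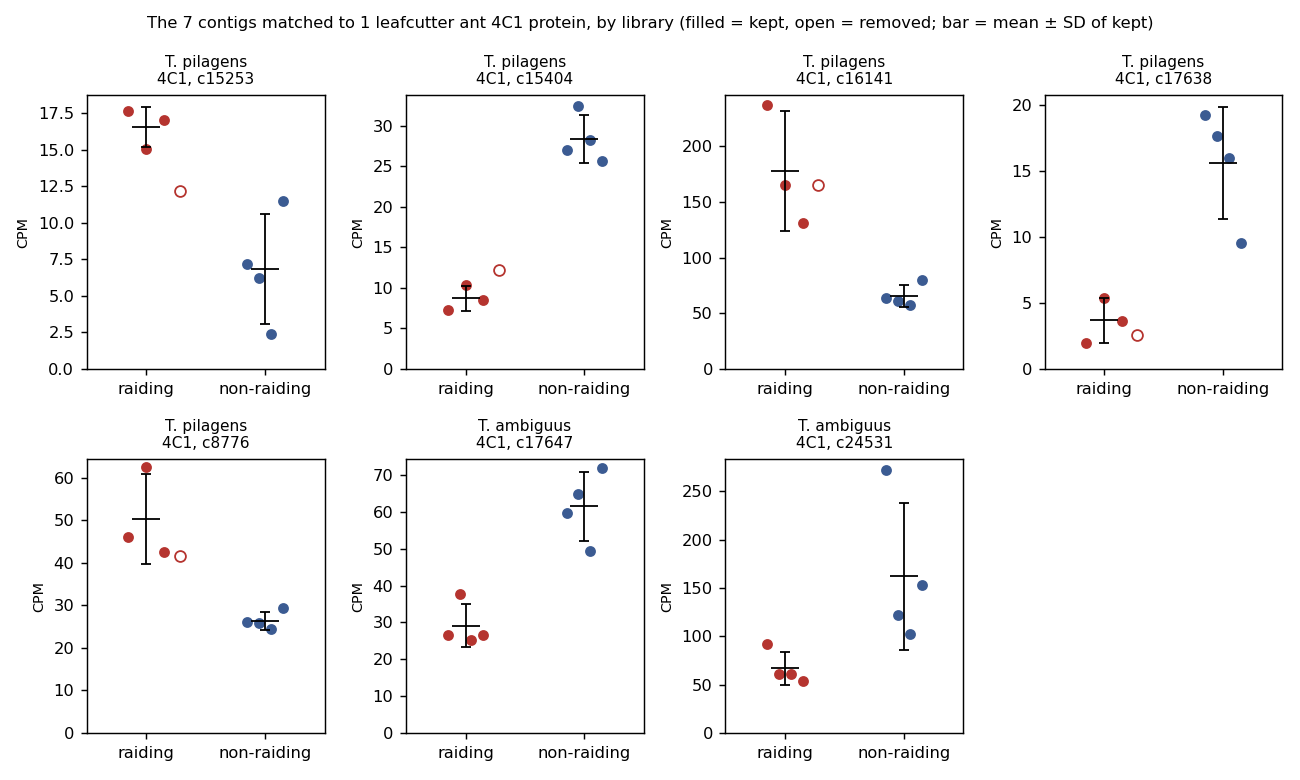
CPM (y axis, from 0) by library of the 7 contigs whose first match is 1 leafcutter ant 4C1 protein, 5 of T. pilagens and 2 of T. ambiguus, raiding left and non-raiding right; filled points are kept libraries, open points the removed raiding library, and black bars the mean ± SD of the kept libraries. Contigs c15253, c16141 and c8776 are higher in raiding workers and the other 4 are lower, with no overlap among kept libraries in any panel.

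The following contigs were picked as examples after their values were seen. Another leafcutter ant 4C1 protein was the first match of 3 T. pilagens contigs, and long matches to it also went both ways. Contig c33245 (497 codons) had 139.9 ± 4.64 CPM in raiding and 56.5 ± 24.1 CPM in non-raiding workers, while c7816 (488 codons) had 34.1 ± 2.21 CPM in raiding and 61.5 ± 14.2 CPM in non-raiding workers (SD, n = 3 and 4). A T. ambiguus contig with the same first match, c15318, had 19.2 ± 6.17 CPM in defenders and 8.74 ± 0.832 CPM in foragers (SD, n = 4 each) and was the only fitted T. ambiguus member that was higher in the raiding state. By the labels, the steepest decrease of all members was that of T. pilagens 4C1 contig c23933, a match of 94 residues, with 1.02, 0.753 and 2.17 CPM in raiding workers, against 7.86, 15.1, 13.4 and 18.0 CPM in non-raiding workers (10.3-fold lower in raiding). The only family 4 member matched to a fire ant protein, 4AB1 contig c35984 of T. pilagens, had 138 ± 12.8 CPM in raiding and 61.3 ± 11.7 CPM in non-raiding workers (SD, n = 3 and 4).

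A 4V3 contig of T. pilagens and 1 of T. longispinosus, the sole member of that host, matched the same protein with 212 residues over 391 codons each. 4V enzymes of mammals hydroxylate fatty acids. T. pilagens contig c13635 had 158, 231 and 72.6 CPM in raiding workers, against 494, 481, 408.9 and 559 CPM in non-raiding workers. The T. longispinosus contig, 4326 assembled from library BR_425, had 0, 0 and 0.0752 CPM in defenders, against 29.1, 0 and 0 CPM in foragers. It thus came from 1 kept forager library, failed the filter, and was counted at 13.3 CPM in the removed forager library BR_425 and at 1.80 CPM in the removed defender library DR_430. The other member that failed the filter, a 6B2 contig of T. ambiguus, had no counts in the 4 defender libraries and 2.19, 0, 1.88 and 1.89 CPM in the 4 forager libraries.

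The families numbered 304 and 305, which carry Drosophila names, gave 4 members. All 3 304a1 contigs matched the same leafcutter ant protein and were higher in raiding. T. americanus contig c39484 had 10.7, 13.1 and 28.5 CPM in raiding workers, against 4.08, 2.75, 3.67 and 4.32 CPM in non-raiding workers, which is 4.74-fold (log2 fold change 2.25 ± 0.36 SE). T. pilagens contig c6425 had 248, 188 and 184 CPM in raiding workers, against 132, 128, 123 and 126 CPM in non-raiding workers, which is 1.64-fold (log2 fold change 0.72 ± 0.11 SE). Its non-raiding libraries were alike, at 127 ± 3.82 CPM (SD, n = 4), and the T. americanus raiding libraries were not, since DR_440 lay at more than the sum of the other kept ones. The 305a1 contig of T. pilagens was lower in raiding, with 2.21 ± 0.42 CPM against 6.53 ± 1.60 CPM in non-raiding workers (SD, n = 3 and 4).

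Protein records were shared widely: the 60 contigs matched 30 records, and 45 contigs shared a record with another member. Of 14 records found in more than 1 species, 11 had all their fitted contigs on 1 side and 3 had contigs on both sides, namely the 6a14 protein and the pair of 4C1 proteins described above. Among the 11, the 4V3 protein had only 1 fitted contig and could not lie on both sides. Counting each record once per species, there were 9 sets of fitted contigs that shared both record and species, 6 of them in 1 direction and 3 in both, all 3 of these in T. pilagens. Members of 300 or more matching residues were higher in raiding in 7 of 29 cases, those of at least 100 but under 300 residues in 7 of 19, and those under 100 residues in 3 of 10. Such contigs may be parts of a single gene, or close copies between which the counting had to divide reads, so they are not independent measurements.

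The counts of libraries that the study removed did not enter the calls that chose the members, although their reads could enter the assembly. The T. longispinosus contig was itself assembled from removed library BR_425, so its level there is no independent value and only T. americanus and T. pilagens are described here. Each was placed by whether its log2 CPM lay nearer to the mean of its own state or of the other. Removed T. americanus raiding library DR_439 lay nearer to the raiding mean for 8 of 9 members (88.9%), beside 826 of all 955 called contigs (86.5%). Removed T. pilagens raiding library DR_687 lay nearer to the raiding mean for 30 of 34 members (88.2%), beside 1253 of 1616 called contigs (77.5%). The members thus followed these libraries about as all called contigs did in T. americanus, and somewhat more often in T. pilagens, a difference that was not tested. The called contigs include the members. They also include contigs that failed the filter on low counts, since 718 of them were fitted in T. americanus and 1387 in T. pilagens. All members of these species were fitted, so the sets are not alike.

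Every 6a20, 6a14, family 9 and other family 6 member was nearer to raiding in these 2 libraries, and so were 304a1 and 305a1. The 5 exceptions were all family 4, with 1 of 2 family 4 contigs of T. americanus and 4 of 17 of T. pilagens. The 6a20 contigs had 91.0 CPM in DR_439 and 58.3 CPM in DR_687, inside the range of the kept raiding libraries of T. americanus and T. pilagens. Contig c12219 of 6a14 had 18.4 CPM in DR_687, below the kept raiding libraries and above all non-raiding libraries. For 4C1 contig c16751, DR_439 had 16.9 CPM, above the kept raiding libraries and close under the lowest non-raiding value of 17.3 CPM. With the removed libraries counted in, the states were apart for 51 of 60 members, beside 54 of 60 in the kept libraries. Members of species without a removed library count the same in both. The share over all contigs was not computed with the removed libraries, so nothing is read from this count.

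**Figure D5:**
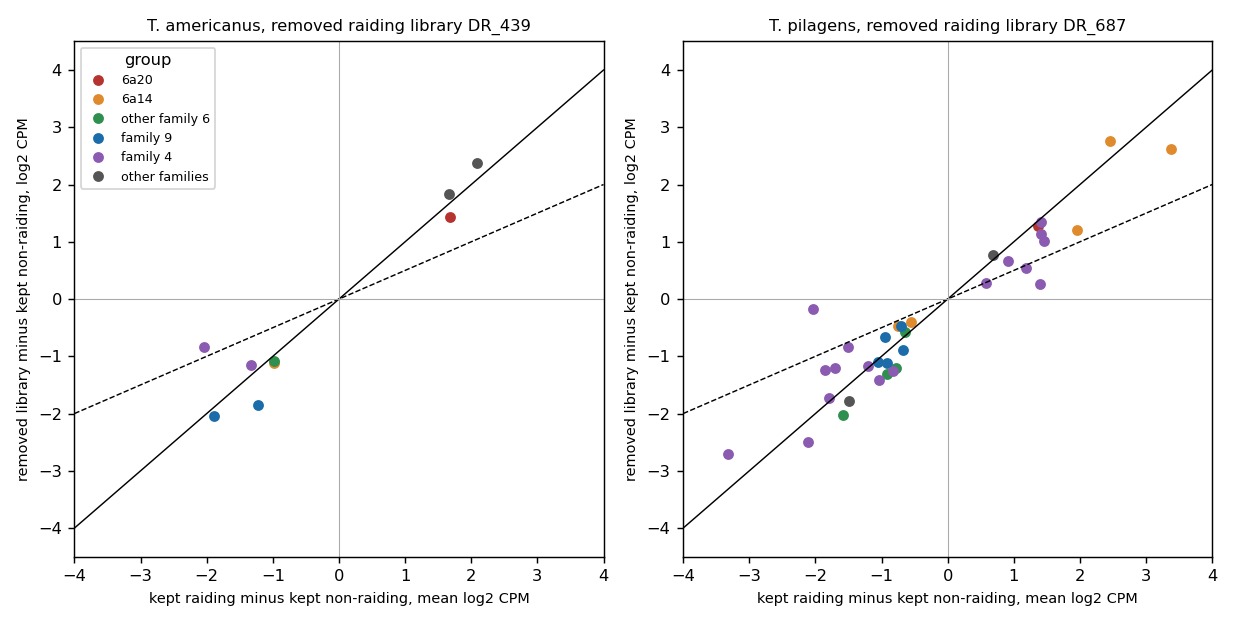
Log2 CPM of each member in the removed raiding library minus the mean of the kept non-raiding libraries (y axis), against the mean of the kept raiding minus that of the kept non-raiding libraries (x axis), for T. americanus DR_439 and T. pilagens DR_687; 1 point per contig, coloured by family group. The solid line marks a removed library equal to the raiding mean and the dashed line the midpoint of the states, and 8 of 9 and 30 of 34 points lie on the raiding side of the dashed line.

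Enzymes that work beside P450s were found by title words in the same called tables, so they too were chosen by this contrast. Cytochrome b5, which passes electrons to P450s, had 4 contigs, all lower in raiding, with 2 called lower in T. pilagens and 0 of 2 called in T. americanus. The conjugating glutathione S-transferases had 5 contigs, 2 of T. pilagens on the higher side and 3 of T. ambiguus on the lower side, with 0 called. UDP-glucuronosyl- and UDP-glucosyltransferases, which add sugars, had 2 contigs on the lower side and 0 called. Esterases had 7 contigs, 2 higher and 5 lower, with 2 called lower in T. pilagens, and no epoxide hydrolase was listed. The 5 P450 4g contigs, all of T. pilagens, were called, 2 higher and 3 lower in raiding. Of all fitted contigs in the called tables, 57.5% were called here in T. pilagens, 32.0% in T. americanus, 22.8% in T. duloticus and 0% in T. ambiguus, so these counts say little about the lists.

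Contigs with titles of proteins abundant in certain tissues also stood in the same tables. By title words, 49 contigs were gut proteins, 2 of them protease inhibitors. In T. pilagens the 19 gut contigs summed to 1877 to 2089 CPM in raiding and 3294 to 4458 CPM in non-raiding workers, with 2 of 12 fitted contigs higher and 10 lower. In T. duloticus the 6 gut contigs summed to 124 to 191 CPM in raiding and 229 to 590 CPM in non-raiding workers, with 1 higher and 5 lower. In T. americanus the sums of the 9 gut contigs overlapped, with 178 to 805 CPM in raiding and 217 to 332 CPM in non-raiding workers. Of its fitted gut contigs, 1 was higher and 4 were lower. In T. ambiguus the 6 gut contigs lay the other way, at 141 to 1516 CPM in defenders and 11.8 to 50.5 CPM in foragers, while 4 of 5 fitted P450 members there were lower in defenders. T. longispinosus was like T. ambiguus in this, with 8 gut contigs at 509 to 2635 CPM in defenders and 31.7 to 89.5 CPM in foragers.

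Contigs of the fat body proteins vitellogenin and arylphorin summed to 605 to 2653 CPM in raiding and 3810 to 14493 CPM in non-raiding T. duloticus (3 contigs), with 1 higher and 2 lower. The vitellogenin contig of T. pilagens had 195 to 543 CPM in raiding and 25.2 to 223 CPM in non-raiding workers, and 3 fat body contigs of T. ambiguus summed to 2045 to 11896 CPM in defenders and 80.6 to 2211 CPM in foragers. Both of these overlapped between states. In T. longispinosus 2 fat body contigs summed to 87.8 to 322 CPM in defenders and 32.3 to 58.3 CPM in foragers, and in T. curvispinosus 1 contig had 17.3 to 46.9 CPM in defenders and 5.17 to 9.02 CPM in foragers. Muscle contigs summed to 629.9 to 664 CPM in raiding and 307 to 383 CPM in non-raiding T. americanus (2 contigs), to 1349 to 1492 CPM in raiding and 968 to 1320.5 CPM in non-raiding T. pilagens (9 contigs), and to 27.4 to 182 CPM in raiding and 233 to 393 CPM in non-raiding T. duloticus (2 contigs). Of the fitted muscle contigs, 2 were higher and 0 lower in T. americanus, 5 higher and 3 lower in T. pilagens, and 0 higher and 2 lower in T. duloticus. No contig of these lists was without counts in every library. The part of gut, fat body or muscle content in the P450 differences was not tested.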

How the data were processed

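Pools of 6 whole workers were sequenced from 6 species and 2 states, 48 libraries in all. Per the labels and methods, the authors trimmed reads with Trimmomatic, assembled 1 transcriptome per species, mapped with TopHat2 2.0.13 and Bowtie, counted with eXpress and called contigs with edgeR. The deposited values are whole-number counts per contig, not normalized; a further deposited table per species lists called contigs with their protein match and the authors' fold changes and p-values, which were not used. Its counts equal those of the first table in 4 species. For T. americanus, only 93 of 955 contigs had equal counts, and the totals differed by 0.0735%. Equal counts were also few among T. pilagens contigs, at 102 of 1616, with totals 0.247% apart. These percentages compare totals, in which opposite differences of single contigs can cancel. Another 88 columns of per-sample values were not used.

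Each species was fitted alone on the 42 libraries the study kept (5936238 to 49129121 counts), with edgeR 4.0.16 in R 4.3.3: filterByExpr at a minimum count of 10, TMM, glmQLFit and glmQLFTest, and Benjamini-Hochberg adjustment at 0.05 over all tested contigs. The SE is the absolute log2 fold change over the square root of F. CPM of single libraries use TMM factors over the 8 libraries of a species; log2 CPM uses a prior count of 2. The fits were checked on simulated counts with known fold changes. The simulation gave every contig the same dispersion, so it does not show how the calls fare with the real spread. At 1 CPM the shallowest and deepest kept libraries hold 5.94 and 49.1 counts of a contig, and p-values measure the spread between pools, some of which may share colonies. T. duloticus libraries were mapped by number. Alternatives were DESeq2 1.42.0, edgeR's likelihood ratio test (filtered and unfiltered contigs), RLE factors, unfiltered contigs, all 8 libraries, and omission of each library. Tables and plots used Python 3.11.15, pandas 2.3.3 and matplotlib 3.10.9.

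The members, lists and naming rule were chosen with earlier results of these data known. Values by library are given for every 6a20 and 6a14 contig, for the contig with the largest absolute fold change per species and group (mean of at least 5 CPM, 100 matching residues), and for the 3 protein records shared by most species, ties going to those with more contigs. Match positions give the codons; the table does not say if matching residues include similar ones. Contig lengths were not used, so levels were not compared between contigs.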

Additional observations from a re-analysis of the deposited data

Results flagged for a closer look

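Groups of 4 libraries were examined for the 26 contigs described by library, in each state, 52 groups in all. The removed raiding libraries of T. americanus and T. pilagens were counted in here. In 1 group, 1 library stood apart from the other 3 by Dixon's criterion at the 95% level, where chance flags about 1 group in 20. It was library DR_693 of defending T. ambiguus, with 37.8 CPM for 4C1 contig c17647, against 25.3, 26.6 and 26.7 CPM in the other defender libraries.

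Contigs that share a protein record lay on opposite sides in 11 pairs of contigs from different species, with no overlap among kept libraries in either species. The differences themselves were not tested. Pairs of T. pilagens and T. ambiguus set unlike contrasts side by side: raiders against autumn workers, and defenders against foragers. With the slavemaker states exchanged, those pairs would lie on the same side. For the 6a14 protein, T. duloticus c9237 had a log2 fold change of -1.10, against 3.34, 2.49 and 1.83 for T. pilagens c12219, c14552 and c33493. For the 4C1 protein with 7 contigs, T. pilagens c15253, c16141 and c8776 had 1.29, 1.45 and 0.95, against -1.08 and -1.28 for T. ambiguus c17647 and c24531. For the other 4C1 protein, T. pilagens c36155 and c7816 had -1.24 and -0.84, against 1.13 for T. ambiguus c15318. Each of these proteins also had T. pilagens contigs on the same side as the other species, without overlap among kept libraries. These were c8138 of 6a14 (-0.75), c15404 (-1.69) and c17638 (-2.07) of the 4C1 protein with 7 contigs, and c33245 (1.32) of the other. The split thus ran within T. pilagens.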

How the results depend on the processing

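Directions changed less than calls. The members were chosen by this same contrast on the kept libraries, so a change of direction was unlikely from the outset. Nothing is read from the stable directions. The number of members higher in raiding stayed at 3 in T. americanus, 1 in T. duloticus, 12 in T. pilagens and 1 in T. ambiguus with RLE factors, on library totals, with all 8 libraries (T. americanus and T. pilagens only, which had a library removed) and without each library in turn, and none of the 26 contigs described by library reversed under any alternative run. The number called depended on the tool, as did the number over all contigs. Against 4 in T. americanus, 1 in T. duloticus, 19 in T. pilagens and 0 in T. ambiguus, the likelihood ratio test called 9, 9, 32 and 5, the same test without the filter 9, 9, 31 and 6, and DESeq2 9, 10, 34 and 5. Over all contigs, in the same order of species, the quasi-likelihood test called 325, 151, 1105 and 0, the likelihood ratio test 1106, 936, 2054 and 300, the same without the filter 1115, 905, 1917 and 347, and DESeq2 1841, 1951, 2840 and 470. With all 8 libraries T. americanus had 8 members and 907 contigs called. Leaving out 1 library gave 0 to 3 in T. americanus (0 without DR_438), 0 to 2 in T. duloticus (2 without BR_418 or DR_424), 7 to 18 in T. pilagens (7 without DR_684, 9 without BR_681) and 0 in T. ambiguus and T. longispinosus. Calls over all contigs dropped too, to 22 without DR_438 in T. americanus, 35 without BR_420 in T. duloticus and 248 without DR_684 in T. pilagens. Of single fold changes under alternatives, 246 kept their side of the threshold, 40 no longer passed it and 26 newly passed it; the cause was not tested. The lone T. longispinosus contig was nearer to its own state in removed library BR_425 by the mean (1 of 1) and not by the median (0 of 1), and in removed library DR_430 it was nearer to the other state under each setting that gave a value (0 of 1); it was assembled from BR_425. Placing only members with a mean of at least 5 CPM gave no value in T. longispinosus, and contigs under 5 CPM rest on few counts in the shallowest libraries. No paired analysis was possible because the labels give no number shared between states, although the study pooled the same colonies across states, and the position codes in contig names cover some libraries only, with 1 code shared between states in each species.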
